A study of Mus musculus with 2 samples.

Results

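The cyclins, cyclin-dependent kinases (Cdk), Cdk inhibitors, retinoblastoma proteins, E2F and DP transcription factors and their close regulators were compared between livers of mice given a miR-378 adenovirus and livers of mice given a control adenovirus. These 44 genes were chosen by name, for their textbook role in the cell cycle, out of 20652 genes with a named probe on the array. Earlier results of these data were known when the genes were chosen. Of the 44 members, 40 were measured, meaning that a probe was well above background on both arrays. Cdk6, Cdkn2a and Cdc25c were not well above background on either array, and no probe mapped to Skp2, which was not analysed here. No member was above background in a single pool alone once all its probes were counted.

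The Ad-378 group is labelled as overexpressing miR-378 from an adenovirus, and the Ad-Ctrl group received a control adenovirus. Both groups were male mice injected into the tail vein at 8 weeks of age with 1e9 plaque forming units, and the labels give no strain. Each group was a pool of 5 livers on 1 array, so there is no spread between mice, no test and no p-value. The labels' protocols give collection at 2 weeks for both groups while the description of the Ad-378 sample says 3 weeks, so a difference of virus and a difference of time cannot be told apart. In bulk liver RNA, fewer dividing cells and less RNA per cell cannot be told apart either. All 15 hepatocyte markers were measured, with a median relative signal of 10652% in Ad-378 and 10550% in Ad-Ctrl, so the label of liver fits its defining genes.

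Cells enter division when D cyclins with Cdk4 or Cdk6, and then E cyclins with Cdk2, phosphorylate the retinoblastoma proteins and release E2F factors, which switch on genes for DNA synthesis. Cyclin A2 with Cdk2 and Cdk1 carries the cell through S and G2 phase, and cyclins B1 and B2 with Cdk1 drive mitosis. INK4 and CIP/KIP proteins hold these kinases back, Wee1 adds an inhibitory phosphate to Cdk1, and Cdc25 phosphatases remove it. Adult hepatocytes are mostly quiescent and often polyploid, and they re-enter the cycle after injury or partial hepatectomy.

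Values are relative signals, the background-subtracted brightness of a gene's probe as a percentage of the 75th percentile of its array (a processed signal of 695 in Ad-378 and 800 in Ad-Ctrl). A difference is the log2 relative signal in Ad-378 minus that in Ad-Ctrl, so 1 log2 unit is 2-fold. The scanner error of a difference combines the deposited errors of both spots and covers measurement on the array, not variation between mice. Its median over all genes was 0.20 log2 units. Brightness depends on the probe, so levels are compared between pools and not between genes. For a probe above background in 1 pool only, an "at least" fold sets its signal against the detection floor of the other pool. That floor is the lowest processed signal of a probe well above background, 11.3 in Ad-378 and 15.2 in Ad-Ctrl. Such a fold does not include the scanner error.

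In the Ad-378 pool, 12 of the 40 measured members lay 2-fold or more below the Ad-Ctrl pool and 0 lay 2-fold or more above it. That is 30% of the members, where 4.51% of all 14288 measured genes lay that far below, 2.83% that far above and 7.35% one or the other. The 12 were Cdk1, Cdkn3, Ccnb1, Ccnb2, Foxm1, Ccne1, Ccna2, Cdkn1c, Rbl1, Ccne2, E2f1 and E2f5, in order of size. The members' median difference was -0.27, against 0.04 over all genes, with 29 members negative and 11 positive. Counting only differences beyond the 95% scanner range, 19 of the 40 were lower and 3 were higher, the 3 being Ccnd2, Ccnd3 and Ccnf, where 17.6% of all genes were lower and 16.3% higher by that criterion. The 28 members inside 2-fold include most of the kinases and inhibitors.

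**Figure D1:**
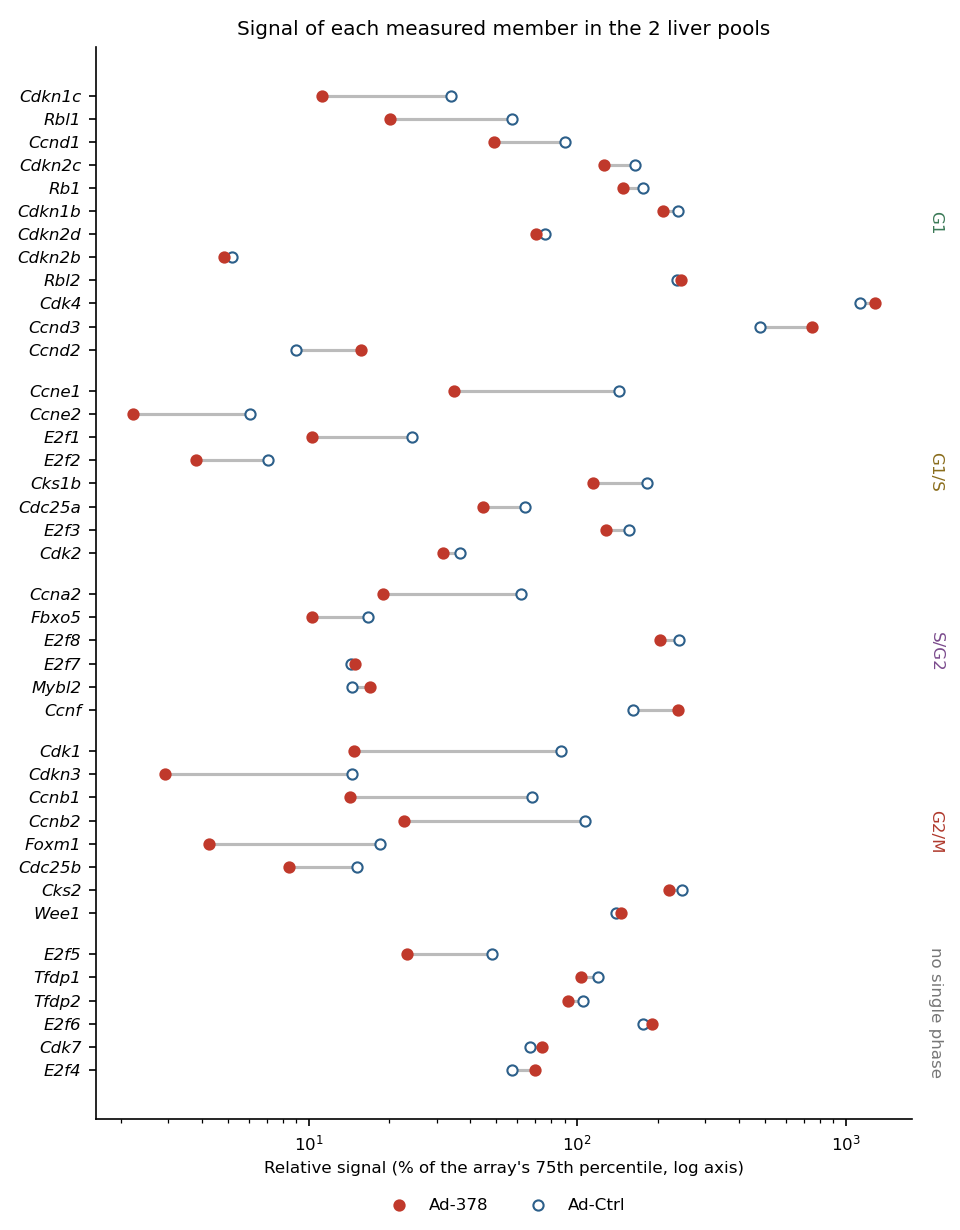
Relative signal of the 40 measured members in the Ad-378 pool (filled) and the Ad-Ctrl pool (open), as a percentage of the 75th percentile of the array on a log axis, grouped by phase; each point is 1 pool on 1 array. Long gaps with Ad-378 on the left stand out for Cdk1, Cdkn3, Ccnb1, Ccnb2, Foxm1 and Ccne1, whereas Cdk4, Wee1 and Rbl2 nearly coincide.

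By phase, the G2/M members had the lowest median difference, at -2.18 with 5 of 8 at least 2-fold lower. The G1/S members followed with a median of -0.78, all 8 negative and 3 at least 2-fold lower. The G1 members had a median of -0.16 (2 of 12 lower), the S/G2 members -0.09 (1 of 6 lower) and the members tied to no single phase -0.04 (1 of 6 lower). Each group is small and mixed, so the medians stand beside the single genes below. Without background subtraction, as in the deposited series matrix, the G2/M median was -1.13 and the G1/S median -0.45. After normexp, a model-based background correction, they were -0.97 and -0.39. The S/G2 median moved most in proportion, to -0.31 and -0.28 under those settings and to -0.41 with the mean over a gene's probes.

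**Figure D2:**
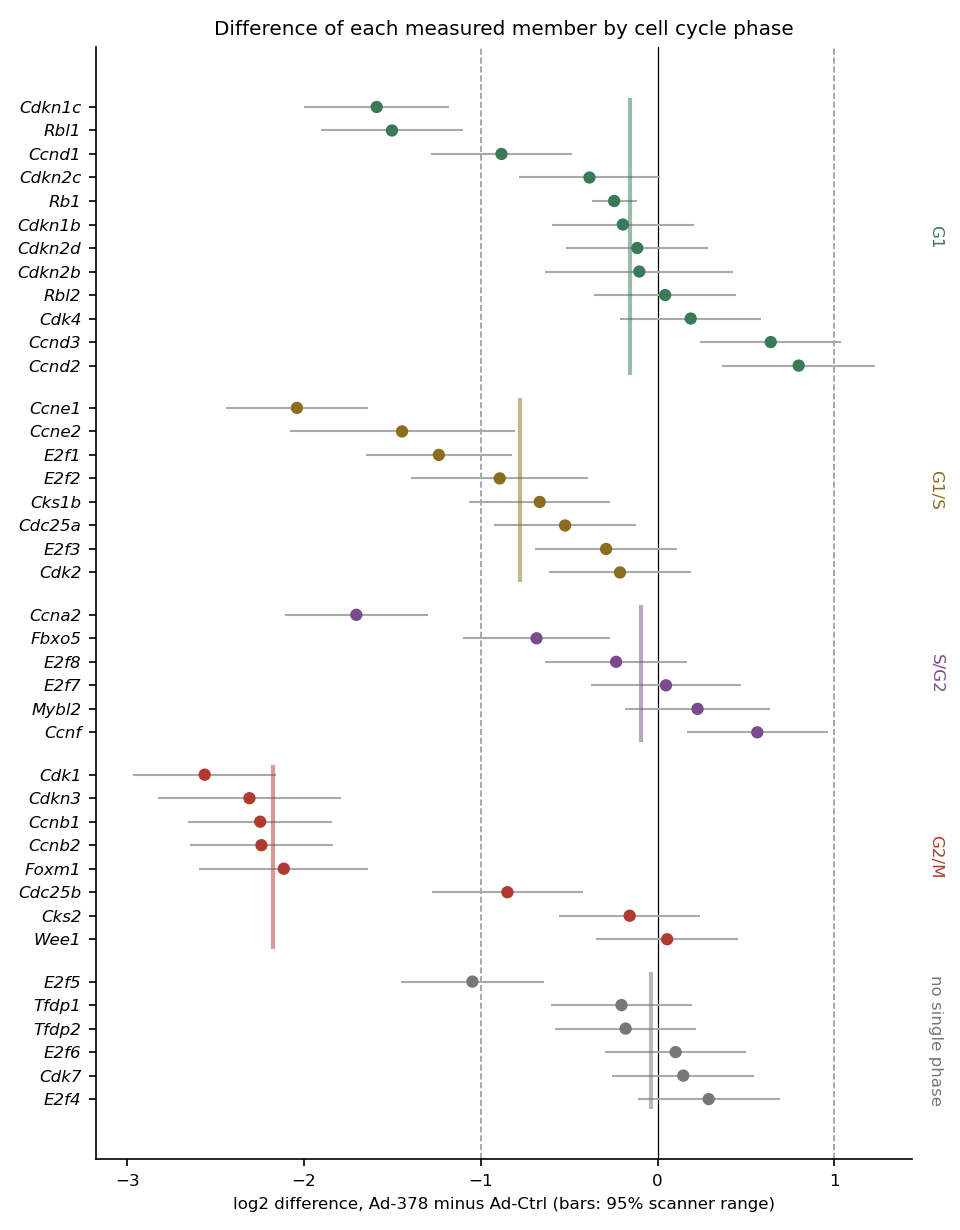
Log2 difference of each measured member, Ad-378 minus Ad-Ctrl, by cell cycle phase, with bars for the 95% scanner range, dashed lines at 2-fold and a thick line at each phase's median. The G2/M group splits into 5 genes between -2.56 and -2.11 and 3 genes between -0.85 and 0.05.

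Promoter letters were read for the members because E2F and CHR (cell cycle genes homology region) elements are the known docking sites of the E2F and DREAM complexes on cell cycle genes. RefSeq promoter windows of build GRCm38.p6, from 250 bases before to 50 after a gene's start, were at hand for 33 members (41 windows). The E2F motif was searched as TTTCCCGC, TTTCGCGC, TTTGCCGC or TTTGGCGC, the CHR as TTTGAA or TTCGAA, and the CCAAT box as CCAAT, each on both strands. TTCGAA reads the same on both strands, and none of these motifs contains another. The E2F motif was in 24.4% of the members' windows, against 3.47% of the 14400 windows of genes measured on both arrays and 2.26% of all 32851 windows in the table. The CHR letters were in 31.7% of the members' windows, 14.7% of those of measured genes and 19.2% of all windows. The CCAAT box was in 53.7% of the members' windows, 37.5% of those of measured genes and 37.4% of all windows. Of the 6 windows of G2/M members, 6 held a CCAAT box and 4 held a CHR. No window was at hand for the lower members Ccna2, Ccne2, Cdkn1c, E2f5 and Foxm1. The same held for Ccnd1, Ccnd2, Rb1, E2f4 and Wee1 among those inside 2-fold. Among the other members at least 2-fold lower, 2 of 7 windows held the E2F motif and 3 of 7 a CHR. Among those inside 2-fold it was 7 of 29 and 9 of 29. These are counts of letters and do not show that a factor binds there.

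Of the windows, 2 held both an E2F motif and a CHR, those of Cdk1 and E2f3, and these are shown with the windows of Ccnb2 and Cdkn3, which were chosen after their values were seen, as lower G2/M genes with a CHR and CCAAT boxes. Motif letters are in capitals. The Cdk1 window is chr10:69352863-69353162 on the minus strand, E2f3 is chr13:29986014-29986313 on the minus strand, Ccnb2 is chr9:70421505-70421804 on the minus strand and Cdkn3 is chr14:46760291-46760590 on the plus strand.
Cdk1: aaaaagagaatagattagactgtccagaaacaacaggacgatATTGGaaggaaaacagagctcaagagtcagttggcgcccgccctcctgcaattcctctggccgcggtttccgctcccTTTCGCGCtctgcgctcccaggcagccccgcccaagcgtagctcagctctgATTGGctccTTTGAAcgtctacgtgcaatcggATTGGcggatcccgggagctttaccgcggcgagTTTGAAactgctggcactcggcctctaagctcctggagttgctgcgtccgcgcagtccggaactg
E2f3: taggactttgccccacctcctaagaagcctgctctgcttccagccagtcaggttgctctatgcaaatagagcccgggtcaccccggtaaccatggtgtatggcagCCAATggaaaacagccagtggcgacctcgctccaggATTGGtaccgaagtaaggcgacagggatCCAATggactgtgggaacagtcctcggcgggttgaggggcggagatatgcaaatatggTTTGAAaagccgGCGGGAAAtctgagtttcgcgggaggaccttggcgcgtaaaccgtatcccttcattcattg
Ccnb2: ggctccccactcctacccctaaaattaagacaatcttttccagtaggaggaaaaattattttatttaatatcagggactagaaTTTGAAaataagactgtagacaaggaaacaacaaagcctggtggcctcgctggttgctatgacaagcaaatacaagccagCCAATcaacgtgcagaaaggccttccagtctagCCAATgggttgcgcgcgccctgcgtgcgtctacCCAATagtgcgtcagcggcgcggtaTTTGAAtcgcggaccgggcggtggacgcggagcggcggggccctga
Cdkn3: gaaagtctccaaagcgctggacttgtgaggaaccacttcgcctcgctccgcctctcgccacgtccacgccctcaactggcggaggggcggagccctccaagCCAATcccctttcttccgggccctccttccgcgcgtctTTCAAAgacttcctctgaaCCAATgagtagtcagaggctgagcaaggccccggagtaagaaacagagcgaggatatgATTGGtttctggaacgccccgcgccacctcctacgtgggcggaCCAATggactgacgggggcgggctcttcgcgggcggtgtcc
In the Cdk1 window a CHR begins 15 and another 71 bases before the start. Its CCAAT boxes lie 48, 80 and 208 bases before the start, and the E2F motif 131 bases before it. The Ccnb2 window has a CHR 4 bases after the start and another 167 bases before it. Its CCAAT boxes lie 21, 54 and 87 bases before the start. The Cdkn3 window has its CHR 111 bases before the start. Its CCAAT boxes lie 34, 92 and 149 bases before the start and 9 bases after it. In the E2f3 window a CHR lies 23 bases and an E2F motif 11 bases before the start, with CCAAT boxes 81, 109 and 145 bases before it. The printed windows of Cdk1 and E2f3 thus share both motifs, while the differences of these genes were -2.56 and -0.29. Another E2f3 window, not printed, held no E2F motif, CHR or CCAAT box.

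The 3 D cyclins, which pair with Cdk4 and Cdk6 in response to growth signals, differed in direction. Ccnd1, the D cyclin known to rise in regenerating liver, had a relative signal of 49.1% in Ad-378 and 90.5% in Ad-Ctrl, a difference of -0.88 with a scanner error of 0.20. Ccnd2 was higher, at 15.7% in Ad-378 and 9.01% in Ad-Ctrl, a difference of 0.80. Ccnd3 was also higher, at 750% in Ad-378 and 481% in Ad-Ctrl, a difference of 0.64, and its other probe had 0.44. All 3 lay inside 2-fold, and each lay outside the 95% scanner range. Ccnd2 and Ccnd3 were the members furthest above 0.

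Cdk4, the kinase partner of the D cyclins, was nearly level, at 1288% in Ad-378 and 1131% in Ad-Ctrl, a difference of 0.19. Its 3 probes had 0.19, 0.07 and -0.02, all within the scanner range of 0. Cdk6, the other D cyclin kinase, gave a processed signal of 5.20 in Ad-378 and 4.03 in Ad-Ctrl, both at background level, so no difference is given.

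Among the Cdk inhibitors, Cdkn1c differed and the others did not exceed the scanner range. Cdkn1c, the imprinted CIP/KIP inhibitor p57, had a relative signal of 11.3% in Ad-378 and 33.9% in Ad-Ctrl, a difference of -1.59 (-1.06 after normexp) and thus 3.01-fold lower in Ad-378. Cdkn1b, the CIP/KIP inhibitor p27, had 208% in Ad-378 and 239% in Ad-Ctrl (-0.20). The INK4 gene Cdkn2c (p18) had 126% in Ad-378 and 164% in Ad-Ctrl (-0.39), the most negative of the 3 measured INK4 genes. Cdkn2d (p19) had a difference of -0.11 and Cdkn2b (p15) one of -0.10. Cdkn2b was dim in both pools, at 4.82% in Ad-378 and 5.18% in Ad-Ctrl. Cdkn2b changed sign, to 0.03 and 0.07, on the 2 settings that use the raw median signal. Neither probe of Cdkn2a, the locus of p16 and p19Arf, was above background, with processed signals of at most 11.2 in Ad-378 and 6.95 in Ad-Ctrl. All 5 measured inhibitors among the members were negative, and 1 of the 5 was at least 2-fold lower. The CIP/KIP gene Cdkn1a is not among the members and is not covered here.

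The retinoblastoma family, which binds and silences E2F factors, divided into Rbl1 and the other two. Rbl1 (p107), itself an E2F target, had 20.2% in Ad-378 and 57.2% in Ad-Ctrl, 2.83-fold lower in Ad-378. Its dimmer probe, for another transcript, had -0.86, inside 2-fold. Rb1, the only member printed in 10 spots, had 149% in Ad-378 and 176% in Ad-Ctrl, a difference of -0.25 with a scanner error of 0.06, small but outside the scanner range. Rbl2 (p130), the family member typical of quiescent cells, had 243% in Ad-378 and 236% in Ad-Ctrl (0.04).

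Of the 8 measured G1/S members, Ccne1, Ccne2 and E2f1 were at least 2-fold lower, and Cdk2 and E2f3 lay within the scanner range of 0. Ccne1, which activates Cdk2 at the start of S phase, had 34.9% in Ad-378 and 144% in Ad-Ctrl, a difference of -2.04. Its second probe, above background in Ad-Ctrl only, had a measured difference of -2.32 with a scanner error of 0.42. Ccne2, the other E cyclin, was dim, with processed signals of 15.4 in Ad-378 and 48.4 in Ad-Ctrl, and differed by -1.45. Its difference was -0.41 without background subtraction and -0.34 after normexp. Cdk2, the partner of both E cyclins, differed by -0.21, with 31.6% in Ad-378 and 36.6% in Ad-Ctrl, inside the scanner range. On the values used, both cyclin E genes thus differed more between the pools than their kinase did. For Ccne2 this was not resolved under the 2 other settings, where Cdk2 had -0.15 without background subtraction and -0.13 after normexp. The scanner error of Ccne2 was 0.32.

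Of the activator E2F genes, which drive S phase entry, E2f1 had the most negative difference, with 10.3% in Ad-378 and 24.3% in Ad-Ctrl (-1.24), and lay inside 2-fold on the raw median signal (-0.81) and after normexp (-0.74). E2f2 was dim, at 3.80% in Ad-378 and 7.05% in Ad-Ctrl (-0.89), and its difference was -0.31 without background subtraction and -0.17 after normexp. E2f3, whose window with both motifs is printed above, had 128% in Ad-378 and 156% in Ad-Ctrl, and its 2 probes differed by -0.29 and -0.28. The order E2f1, E2f2, E2f3 is not resolved by the scanner error for the first pair, since 0.21 and 0.25 are the errors of E2f1 and E2f2.

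Cdc25a, the phosphatase that activates Cdk2, had 44.5% in Ad-378 and 63.9% in Ad-Ctrl (-0.52). Cks1b, the cofactor with which the ubiquitin ligase Skp2 marks p27 for degradation, had 115% in Ad-378 and 182% in Ad-Ctrl (-0.67), and its second probe had -0.85. Both lay inside 2-fold and outside the scanner range.

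The S/G2 members were mixed. Ccna2, the cyclin of S and G2 phase, was 3.26-fold lower in Ad-378, at 19.0% in Ad-378 and 61.8% in Ad-Ctrl (-1.70). Fbxo5 (Emi1), which inhibits the anaphase-promoting complex, had 10.3% in Ad-378 and 16.6% in Ad-Ctrl (-0.68). In contrast, Ccnf, a cyclin that acts as an F-box protein and binds no Cdk, was higher, with 239% in Ad-378 and 161% in Ad-Ctrl (0.56). Mybl2 (B-Myb), which activates G2/M genes with the MuvB complex, was not lower either, with 16.9% in Ad-378 and 14.5% in Ad-Ctrl (0.23), and its dimmer probe had 0.57.

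The atypical E2F genes E2f7 and E2f8, which repress E2F targets and favour polyploidy in the liver, did not reach 2-fold on the values used. E2f8 had 204% in Ad-378 and 240% in Ad-Ctrl (-0.23). E2f7 depended on the probe, since the brighter probe had 14.9% in Ad-378 and 14.4% in Ad-Ctrl (0.05), while the other had 8.26% in Ad-378 and 19.2% in Ad-Ctrl (-1.22). Both E2f7 probes carry the same RefSeq identifier and both were above background in both pools, so no single direction is given for E2f7. Its value was -0.72 without background subtraction and -0.62 after normexp.

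The mitotic kinase and its cyclins were, with Cdkn3, the members furthest below 0. Cdk1 had a relative signal of 14.7% in Ad-378 and 86.9% in Ad-Ctrl, 5.90-fold lower in Ad-378 (-2.56, scanner error 0.21), and ranked 41 from the bottom among 14288 genes. Ccnb1 had 14.3% in Ad-378 and 67.7% in Ad-Ctrl (-2.25, and -1.62 after normexp), and Ccnb2 had 22.7% in Ad-378 and 107% in Ad-Ctrl (-2.24), with ranks of 70 and 72. On the probes used, the kinase and both B cyclins were therefore lower by 4.73-fold to 5.90-fold. A second Ccnb1 probe had -3.25, and the remaining one, above background in Ad-Ctrl only, was at least 6.61-fold lower in Ad-378.

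The 3 Cdk1 probes did not all go the same way. A second probe was above background in Ad-Ctrl only, with processed signals of 5.36 in Ad-378 and 48.0 in Ad-Ctrl, at least 3.68-fold lower in Ad-378. The remaining probe was above background in Ad-378 only, with processed signals of 31.4 in Ad-378 and 8.18 in Ad-Ctrl, at least 2.38-fold higher in Ad-378. All 3 carry the same RefSeq identifier.

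Foxm1, the forkhead factor that activates mitotic genes, had 4.25% in Ad-378 and 18.4% in Ad-Ctrl (-2.11). Cdkn3, a phosphatase that acts on Cdk proteins and is itself expressed in dividing cells, had 2.92% in Ad-378 and 14.5% in Ad-Ctrl (-2.31). Both were dim in Ad-378. After normexp the differences were -0.94 for Foxm1 and -0.997 for Cdkn3, just inside 2-fold for both. Without background subtraction they were -1.15 for Foxm1 and -1.10 for Cdkn3.

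The other G2/M members were closer between the pools. Cdc25b, a phosphatase that activates Cdk1, had 8.42% in Ad-378 and 15.2% in Ad-Ctrl (-0.85, and -0.37 after normexp). Wee1, the kinase that opposes it, had 145% in Ad-378 and 140% in Ad-Ctrl (0.05). Cks2, the small Cdk-binding protein, had 221% in Ad-378 and 246% in Ad-Ctrl (-0.16). Cdc25c gave processed signals of 3.58 in Ad-378 and 10.2 in Ad-Ctrl, not well above background in either pool.

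Of the E2F and DP genes that act through more than 1 phase, E2f5 was the one that reached 2-fold. E2f5, a repressor E2F that pairs with the pocket proteins, had 23.3% in Ad-378 and 48.2% in Ad-Ctrl (-1.05). It lay just past 2-fold, and inside it on the raw median signal (-0.86), after normexp (-0.79) and, narrowly, under quantile normalization. E2f4, the main repressor E2F of quiescent cells, had 69.7% in Ad-378 and 57.1% in Ad-Ctrl (0.29), and E2f6, a repressor that needs no pocket protein, had 189% in Ad-378 and 177% in Ad-Ctrl (0.10). The DP partners Tfdp1 (104% in Ad-378 and 119% in Ad-Ctrl, -0.20) and Tfdp2 (92.9% in Ad-378 and 105% in Ad-Ctrl, -0.18) were inside the scanner range, although the second Tfdp2 probe had -0.87. Cdk7, the kinase that activates the other Cdk proteins and also serves transcription, had 74.1% in Ad-378 and 66.9% in Ad-Ctrl (0.15).

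**Figure D3:**
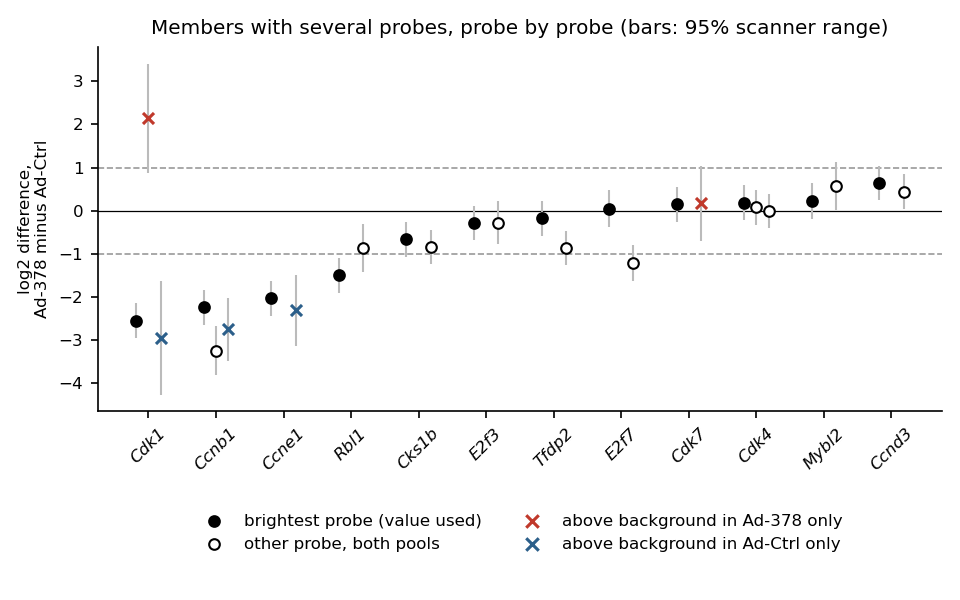
Log2 difference, Ad-378 minus Ad-Ctrl, of every probe above background in at least 1 pool for the 12 members with several such probes, with bars for the 95% scanner range and dashed lines at 2-fold. Crosses mark probes above background in 1 pool only and are drawn at the measured value. The other pool's signal there was not well above background. Probes of Cdk1, E2f7, Ccnb1 and Tfdp2 lie apart, while those of Cdk4, Ccnd3 and E2f3 lie close.

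Cyclins and Cdk family kinases outside the 44 were compared to see whether the families as such were lower. Of 15 measured other cyclins, 0 reached 2-fold either way, and their median was 0.12, with Ccnt2 at -0.51 and Ccnk at -0.40, both cyclins of transcription kinases, and Ccnj at 0.38. Of 18 measured other Cdk family kinases and partners, 0 were at least 2-fold apart, with a median of 0.08 (-0.02 under loess normalization), Cdkl1 at 0.57, Cdk20 at -0.51 and Mnat1, the assembly factor of Cdk7, at 0.46. Over all genes 7.35% lay 2-fold or more either way, so a count of 0 in lists of 15 and 18 is near that share. The cyclins among the members had 5 of 9 at least 2-fold lower and a median of -1.45. Their Cdk kinases had 1 of 4 lower and a median of -0.03.

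Genes known as E2F targets at G1/S were listed beside the members. Of all measured genes, 4.51% lay 2-fold or more below Ad-Ctrl and 2.83% that far above. Of 29 E2F targets measured among 31 listed, 13 lay 2-fold or more below Ad-Ctrl and 0 that far above. Their median was -0.78, the lowest being the replication licensing gene Mcm6 (-2.51), the chromatin factor Uhrf1 (-2.45) and the chromatin assembly subunit Chaf1a (-2.23). Of 27 measured G2/M genes among 33 listed, 23 lay 2-fold or more below and 0 that far above, and the median of this list was -1.61. The lowest were the spindle protein Ckap2 (-3.11), the mitotic kinase Pbk (-2.75) and Aurka (-2.66).

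The protein complexes that act on these genes and proteins were listed as well. Of 5 measured DREAM and MuvB subunits, which bind the CHR, 0 were at least 2-fold lower. Their median was -0.33, against -0.27 for the members and 0.04 over all genes, with Lin9 at -0.65, Rbbp4 at 0.45 and Lin37 at -0.37. Of 22 SCF and anaphase-promoting complex genes, 2 were at least 2-fold lower (9.09%, against 4.51% of all genes). They were Cdc20 (-2.93) and Ube2c (-2.07), the activator and the ubiquitin-conjugating enzyme of the anaphase-promoting complex, which are themselves known to be made in G2 phase. The median of that list was 0.03, with a negative sign under quantile (-0.02) and loess (-0.05) normalization and the percentile over detected probes (-0.01), and Cdc16, a core subunit, had -0.67.

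**Figure D4:**
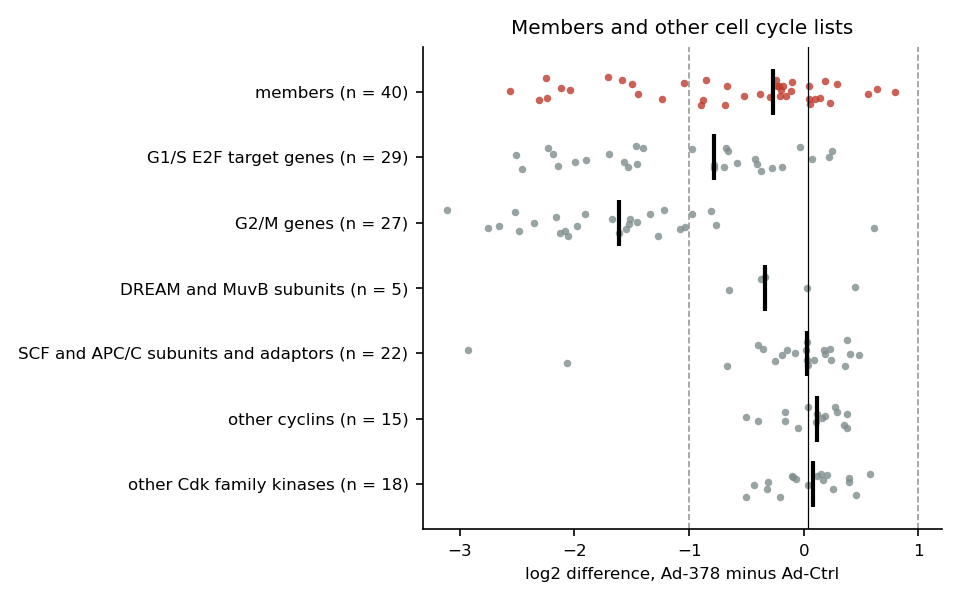
Log2 difference, Ad-378 minus Ad-Ctrl, of each measured gene in the members and in 6 other cell cycle lists, with a thick line at each median, dashed lines at 2-fold and a thin line at the median of all genes (0.04). The G1/S and G2/M lists extend below -2, whereas the other cyclins and Cdk family kinases lie between -0.51 and 0.57.

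Markers of several cell types also differed between the pools, and their part in the members' differences was not tested. Over all measured genes, 4.51% lay 2-fold or more below Ad-Ctrl and 2.83% that far above. Kupffer cell and macrophage markers had a median of -0.88 (4 of 13 at least 2-fold lower) and a summed relative signal of 7564% in Ad-378 and 14133% in Ad-Ctrl. Stellate cell and fibroblast markers had a median of -0.92 (6 of 13 lower) and sums of 4364% in Ad-378 and 8307% in Ad-Ctrl. Without Col3a1, a collagen gene at -2.71, the sums were 4055% in Ad-378 and 6292% in Ad-Ctrl. The median of the T and NK cell markers was -0.40 (3 of 14 lower; sums of 1315% in Ad-378 and 1350% in Ad-Ctrl), and sinusoidal endothelial markers -0.29 (0 of 13 lower; sums of 5242% in Ad-378 and 6303% in Ad-Ctrl). Without Cd4, which was higher in Ad-378 (0.48), the T and NK sums were 832% in Ad-378 and 1004% in Ad-Ctrl. B and plasma cell markers had a median of 0.49 (2 of 6 at least 2-fold higher; sums of 145% in Ad-378 and 85.6% in Ad-Ctrl). Cholangiocyte markers had a median of 0.56, with 2 of 7 at least 2-fold higher and 3 of 7 negative. Their sums were 851% in Ad-378 and 385% in Ad-Ctrl, and without Spp1, the osteopontin gene, 132% in Ad-378 and 92.4% in Ad-Ctrl. Hepatocyte markers had a median of 0.16 (-0.01 under quantile and -0.06 under loess normalization), with 0 of 15 at least 2-fold apart and sums of 195208% in Ad-378 and 173647% in Ad-Ctrl. The labels describe removal of globin RNA during preparation. Erythroid markers had a median of -0.13, with 1 of 7 at least 2-fold higher and sums of 5131% in Ad-378 and 4984% in Ad-Ctrl. That marker was Alas2, the erythroid enzyme of heme synthesis, at 809% in Ad-378 and 200.2% in Ad-Ctrl, and without it the sums were 4322% in Ad-378 and 4783% in Ad-Ctrl. Neutrophil markers had a median of -0.22 (1 of 5 lower) and sums of 440% in Ad-378 and 411% in Ad-Ctrl, or without Elane, neutrophil elastase, 152% in Ad-378 and 180% in Ad-Ctrl. Cd163, Des, Klrb1c, Ncr1, Cd79a, Blk, Krt7, Rhd, Ltf, Ngp and Cxcr2 were not well above background on both arrays, and no probe mapped to Cd68, Hbb-b1 and Ly6g. The cell type that the member transcripts came from cannot be read from these values.

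Of the 12 lower members, 7 were at least 2-fold lower under each of the 7 other settings tried, namely Ccna2, Ccnb1, Ccnb2, Ccne1, Cdk1, Cdkn1c and Rbl1. The other 5 lay inside 2-fold under at least 1 setting.

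**Figure D5:**
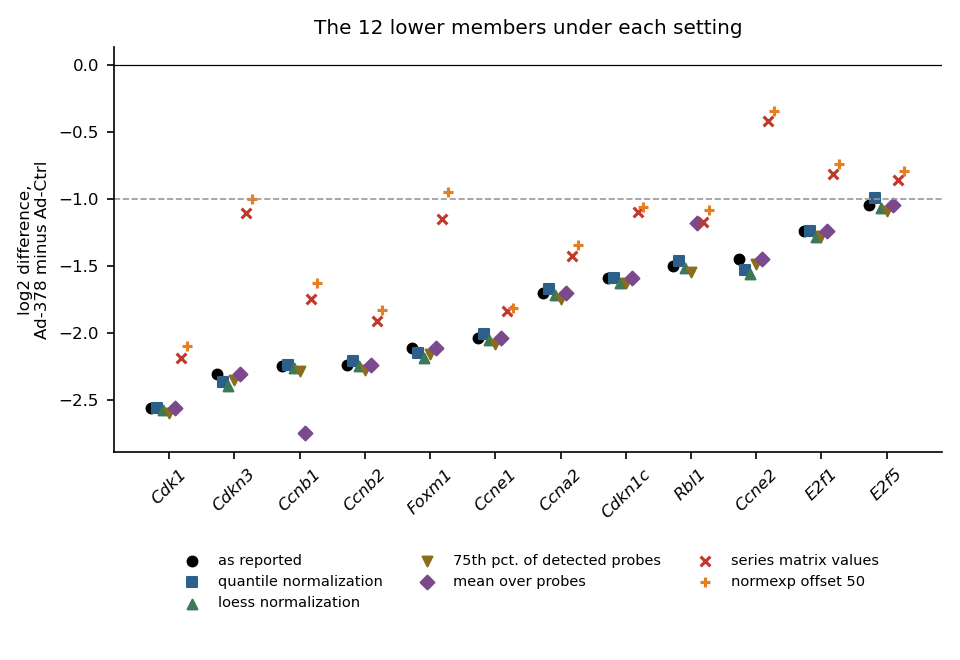
Log2 difference, Ad-378 minus Ad-Ctrl, of the 12 lower members under the values reported and 6 other settings, with a dashed line at 2-fold. The series matrix values and normexp lie nearer 0 than the values reported for every gene, and after normexp 7 of the 12 are past the line.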

How the data were processed

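RNA of 2 liver pools, each from 5 mice, was measured on Agilent 1-colour arrays. Values are linear-scale intensities: the authors deposited Feature Extraction output (version 11.0.1.1 per the file headers, 9.1 in the submitters' processing notes) and a series matrix equal to the raw median signal in 100% of values. The other deposited columns used were the signal error, the local background and flags of 0 or 1.

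Of 44397 spots on each array, 1377 control spots were dropped, as were 123 gene spots with an outlier flag; no spot was saturated. Log2 processed signals were averaged per probe and the 75th percentile over probes was subtracted. RefSeq identifiers without versions named 27219 of 39401 probes in a table of assembly GRCm38.p6. The probe design names build mm9, and no gene coordinates of that build are given. The promoter windows carry coordinates of GRCm38.p6. A gene was represented by the brightest of its probes detected above background in both pools. The share of gene spots above background was 65.7% in Ad-378 and 63.1% in Ad-Ctrl. The number of arrays limits the precision.

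The members and lists were chosen with earlier results of these data known. All members are named, and from each other list at most 3 genes with the largest differences, apart from Cd4, named for its part in a sum. With 1 array a group there was no test, and genes were counted at 2-fold. Alternatives were quantile or loess (span 0.3) normalization, the percentile over detected probes, averaging a gene's probes, the series matrix, normexp (offset 50, fitted without outlier spots), dropping the background filter, and folds of 1.5 and 3. The steps were tested on simulated data. Python 3.11.15, numpy 2.4.6, pandas 2.3.3, statsmodels 0.14.6, R 4.3.3 and limma 3.58.1 were used.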

Additional observations from a re-analysis of the deposited data

Results flagged for a closer look

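One Cdk1 probe, not the one used for the comparison of members, was detected in Ad-378 but not in Ad-Ctrl and was at least 2.38-fold higher in Ad-378, whereas the Cdk1 probe used was 5.90-fold lower in Ad-378. It is given because it shows a signal above that of the control pool in data outside the comparison.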

How the results depend on the processing

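No test was run, so the limits are the size of a difference and the scanner error. The median of the members was between -0.45 and -0.25 under the 7 other settings, against -0.27 as reported. Members at least 2-fold lower numbered 12 as reported, 7 after normexp, 9 on the series matrix values, 11 under quantile normalization and 13 with no filter on background, where Cdc25c enters. The share of all genes that far lower was 4.51% as reported, 2.46% after normexp and 2.76% on the series matrix values. It was 4.77% under quantile normalization and 5.64% with no filter on background. At 1.5-fold 17 were lower and 2 higher, and at 3-fold 8 were lower and 0 higher. The shares of all genes at these folds were not computed. With the series matrix the G2/M median was -1.13 and the G1/S median -0.45, and with normexp -0.97 and -0.39. The S/G2 median was -0.31 with the series matrix, -0.28 with normexp and -0.41 with the mean over probes, where the E2f7 probes enter together. The series matrix and normexp settings start from the raw median signal, normexp with an added offset of 50, and the smaller sizes were those of dim genes such as Ccne2; the cause was not tested. With the dimmest measured probe in place of the brightest, an alternative chosen after seeing the data, 12 members were lower, E2f7 among them and Rbl1 not. Of 280 member values under the other settings, 258 stayed within the 95% scanner range of the value reported, 22 moved further and 0 of the lower members turned in sign. Cdkn2b, Rbl2, Wee1 and E2f7 changed sign around 0. No paired analysis was possible because there was a lone array on each side, and no array could be left out. Signals near background, as for Cdk6, Cdkn2a and Cdc25c, limit what could be compared.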
